A study of Mus musculus with 20 samples.

Results

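The ribosomal protein genes of the mouse were described by the accessible chromatin around them. They were chosen by name, as the protein-coding genes of GENCODE M21 whose symbol begins with Rpl or Rps, with Rpsa, leaving out the kinases named Rps6k and symbols that contain -ps. This gave 86 of 21938 protein-coding genes. Of these, 77 encode core proteins of the cytoplasmic ribosome, 46 in the large subunit and 31 in the small subunit. The other 9 are paralogs and name matches: Rpl10l, Rpl22l1, Rpl36al, Rpl39l, Rpl3l, Rpl7l1, Rps27l, Rps27rt and Rps19bp1, the last of which is named for a protein that binds RPS19 and is not itself a ribosomal protein.

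The study asked how loss of OCT4 at the exit from mitosis affects accessible chromatin in mouse ES cells. ATAC-seq, in which the transposase Tn5 cuts open DNA, was run on ZHBTc4 cells, whose own Pou5f1 gene is switched off by doxycycline (dox). The cells carried either SNAP-MD-OCT4, which a mitotic degron removes at the M-G1 transition, or SNAP-MD*-OCT4, whose degron is mutated, and in both cases YPet-MD. Both constructs were introduced with lentivirus under a PGK promoter and the cells were sorted populations rather than single clones. After 40 h of dox, cells of each line were sorted by Hoechst stain for DNA and by YPet-MD into 4 phases, labelled Early G1, Late G1, S and, last, Late S/G2, with 2 libraries per line and phase (8 groups, 16 libraries). Another 4 libraries came from unsorted cells of both lines without dox. The peaks of the 16 dox-treated libraries were merged into 1 list of regions without heights, so no value below compares MD-OCT4 with MD*-OCT4, cell cycle phases or replicates. Every value describes where at least 1 of these libraries had a called peak, with no replicate of the list and an unknown depth, and quartiles give the spread between genes. Absence from the list does not show that a promoter was closed.

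Ribosomal proteins bind the ribosomal RNAs to form the large subunit, which joins amino acids, and the small subunit, which reads the mRNA. Their genes are among the most highly transcribed by RNA polymerase II in growing cells, are mostly short, and often carry snoRNA genes in their introns. Their mRNAs are known for a 5′ terminal oligopyrimidine tract, a C followed by a run of pyrimidines, through which mTOR signalling controls their translation.

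The reference sequence around the annotated 5′ end is shown for 5 genes chosen by role, to set their differing promoter elements side by side. Rps16 has long served as a model ribosomal protein promoter, RPLP0 forms the base of the stalk of the large subunit, RPS6 is the substrate of the S6 kinases, and RPL10 and RPS4X are encoded on chromosome X. Each sequence is RefSeq's GRCm38 (mm10), runs 5′ to 3′ on the strand of the gene, and holds 100 bases before the 5′ end and 30 from it. Capitals mark matches on either strand to the 9 motifs described further on.
Rps6, chr4:86857383-86857512, minus strand: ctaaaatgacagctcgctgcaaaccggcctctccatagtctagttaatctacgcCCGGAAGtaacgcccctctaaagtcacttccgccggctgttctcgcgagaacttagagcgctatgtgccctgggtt
Rps16, chr7:28350552-28350681, plus strand: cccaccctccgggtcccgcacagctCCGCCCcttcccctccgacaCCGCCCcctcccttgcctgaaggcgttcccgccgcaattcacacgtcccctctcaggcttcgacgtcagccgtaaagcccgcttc
Rplp0, chr5:115559367-115559496, plus strand: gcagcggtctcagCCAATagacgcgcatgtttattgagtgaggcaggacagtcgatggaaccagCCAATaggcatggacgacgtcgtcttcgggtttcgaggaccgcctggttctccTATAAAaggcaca
Rps4x, chrX:102189365-102189494, minus strand: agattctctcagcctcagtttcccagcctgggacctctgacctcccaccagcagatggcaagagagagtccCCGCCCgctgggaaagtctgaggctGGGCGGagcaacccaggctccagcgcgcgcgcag
Rpl10, chrX:74270712-74270841, plus strand: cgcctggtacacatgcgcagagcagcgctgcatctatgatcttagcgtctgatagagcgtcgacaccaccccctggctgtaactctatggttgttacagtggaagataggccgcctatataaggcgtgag
Rps6 held an ETS match at -46 from the 5′ end. Rps16 held 2 GC boxes, at -75 and -55, and Rps4x 2 at -29 and -4. Rplp0 held CCAAT boxes at -87 and -36 and a TATA box at +18, that is, after its annotated 5′ end. Rpl10, which had the widest promoter peak of all members, held no match in these bases. Further upstream it held a GC box at -222 and CCAAT boxes at -218 and -128.

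A pyrimidine tract was sought in the genome letters that start at the annotated 5′ end, as a C and at least 4 further pyrimidines. Of the 8 genes that had one, 3 are shown, with 30 bases before and 30 from the 5′ end and the run in capitals. Rpl4 and Rpl37 encode large subunit proteins and Rps21 a protein of the small subunit.
Rpl4, chr9:64173345-64173404, plus strand: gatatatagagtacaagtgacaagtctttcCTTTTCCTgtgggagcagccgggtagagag
Rpl37, chr15:5116615-5116674, plus strand: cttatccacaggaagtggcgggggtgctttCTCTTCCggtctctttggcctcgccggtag
Rps21, chr2:180257347-180257406, plus strand: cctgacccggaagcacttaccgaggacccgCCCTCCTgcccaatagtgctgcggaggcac
The run was 8 bases long in Rpl4 and 7 in Rpl37 and Rps21. Rpl36, Rpl37a and Rps27rt each had a run of 6. The tract was thus found in 8 of 86 members (9.3%), against 2.33% of all protein-coding genes. The count depended on which start was read. With any annotated protein-coding start it was 23 members (26.7%) against 5.14%, and with the most upstream start in RefSeq it was 13 of 66 matched members (19.7%) against 2.19%. A longer run, C and at least 6 pyrimidines, lay anywhere within 50 bp of the 5′ end in 55 members (64.0%) and in 41.6% of all genes. Among 78 mitochondrial ribosomal protein genes, which are nuclear genes for a separate ribosome, 2 had a tract at the 5′ end.

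The list held 102373 peaks with a median width of 415 bp. Of 10 marker genes of mouse ES cells, 8 had a peak within 1000 bp of their 5′ end, against 66.1% of all protein-coding genes. The 8 included Pou5f1, Sox2, Klf4 and Zfp42, while the nearest peak was 1481 bp from the 5′ end of Nanog and 4663 bp from that of Esrrb. Counted from any protein-coding start, 9 of the 10 had a peak within 1000 bp, against 69.4% of all protein-coding genes. A peak at a start is no measure of expression.

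Nearly every ribosomal protein gene had a listed peak at its start. A peak lay within 1000 bp of the annotated 5′ end in 81 of 86 members (94.2%), against 66.1% of all protein-coding genes and 98.7% of mitochondrial ribosomal protein genes, and over the 5′ end itself in 77 (89.5%), against 58.8%. Among core genes a peak lay within 1000 bp in 45 of 46 for the large subunit and in 30 of 31 for the small subunit, and among the other 9 members in 6. The 2 core genes without such a peak were Rpl17, with the nearest peak 1641 bp away, and Rps2, with the nearest 1475 bp away. Rps2 encodes a protein of the small subunit at the mRNA entry channel. Both genes have further protein-coding transcripts that start downstream, and in both a peak lay over such a start, 894 bp wide in Rpl17 and 1539 bp wide in Rps2. Counted from any protein-coding start, all 77 core genes had a peak within 1000 bp, and 83 of 86 members did (96.5%), against 69.4% of all protein-coding genes. For the 66 members with an entry in RefSeq, a peak lay within 1000 bp of the start given there in 63 (95.5%), against 68.2% of 16538 matched genes.

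The 3 members without a peak at any protein-coding start were all outside the core list. Rpl39l, a paralog of Rpl39 known for its expression in the testis, had no peak within 10000 bp of the gene, the nearest being 17421 bp from its 5′ end. Rpl3l, the paralog of Rpl3 used in skeletal muscle and heart, had its nearest peak 3063 bp away. Of the 5 peaks within 10000 bp of Rpl3l, the widest, at 1539 bp, was the one over a start of Rps2, which lies 5890 bp from Rpl3l. Rps27rt, a single-exon copy of Rps27, had its nearest peak 2923 bp away. The remaining 6 had a peak over the 5′ end, from 764 bp wide in Rps19bp1 to 1413 bp in Rpl36al. They included Rpl10l, the copy of Rpl10 known from male germ cells, with a peak of 848 bp. Rpl22l1 and Rps27l, paralogs of Rpl22 and Rps27, had peaks of 1220 and 1198 bp, and Rpl7l1, the paralog of Rpl7, one of 1120 bp.

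**Figure D1:**
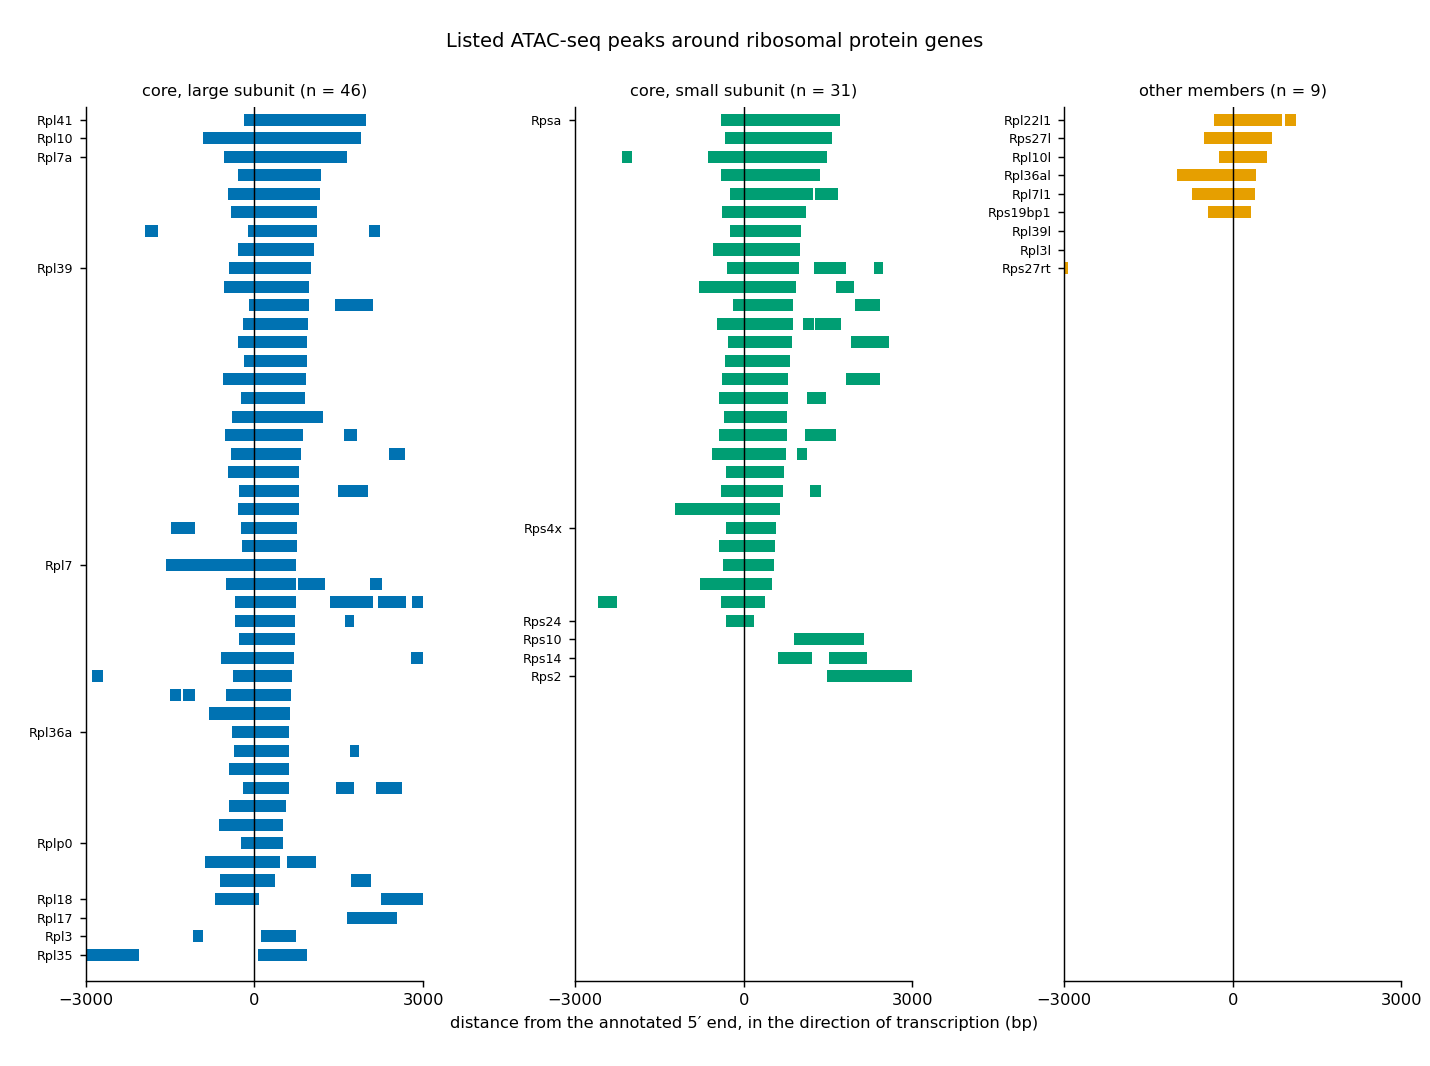
Each row is a gene and each bar a listed peak, by distance in bp from the annotated 5′ end (vertical line) in the direction of transcription, from 3000 bp before to 3000 bp after, for 46 core genes of the large subunit, 31 of the small subunit and the other 9 members. Rows are ordered by how far the peak over the 5′ end reaches downstream, and genes without such a peak stand last. Names are given for the 5 widest and 5 narrowest core peaks, genes without a peak over the 5′ end, chromosome X and the other members. A peak covers the line in 77 rows, and Rpl39l and Rpl3l have no bar in this range.

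In 4 members a peak lay within 1000 bp but not over the annotated 5′ end. The gap was 63 bp in Rpl35, 110 bp in Rpl3, 611 bp in Rps14 and 898 bp in Rps10. In Rpl3, Rps14 and Rps10, a peak covered another protein-coding start of the gene. RPL3 is a protein near the peptidyl transferase centre, and RPS14 and RPS10 belong to the small subunit. The annotated 5′ end was therefore upstream of other annotated starts in these genes, which bears on every position given here.

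The promoter peak, taken as the peak nearest the 5′ end, had a median width of 1198 bp over the 81 members with one (quartiles 1027 to 1413, range 502 to 2804). Over all 14498 protein-coding genes with a promoter peak the median was 1083 bp (847 to 1332), and 52 of the 81 peaks (64.2%) were wider than this. For mitochondrial ribosomal protein genes it was 1035 bp (910 to 1190, 77 peaks). The quartiles of the 3 sets overlapped. Within the core list the medians were 1151 bp for the large subunit and 1233 bp for the small subunit, with quartiles of 1014 to 1388 bp and 1072 to 1500 bp.

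**Figure D2:**
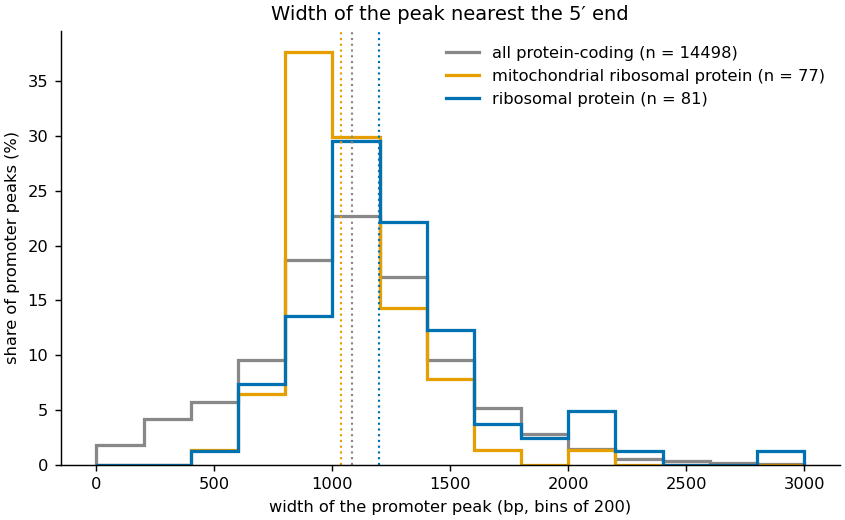
Share of promoter peaks (%) by width in bins of 200 bp, for 81 ribosomal protein genes, 77 mitochondrial ribosomal protein genes and 14498 protein-coding genes, with dotted lines at the medians (1198, 1035 and 1083 bp). The 17 peaks of all protein-coding genes that are 3000 bp or wider are not drawn, and no ribosomal protein gene falls below 400 bp.

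The widest promoter peak belonged to Rpl10, whose protein joins the large subunit in the last steps of its assembly. This peak, at chrX:74269900-74272703, was 2804 bp wide and reached 912 bp upstream and 1891 bp downstream of the 5′ end. Rpl7 followed with 2320 bp, of which 1575 bp lay upstream, towards the divergent gene Rdh10. Rpl7a had 2195 bp, Rpl41, the gene of the smallest ribosomal protein, 2172 bp, and Rpsa, the gene of the laminin receptor protein of the small subunit, 2115 bp. In Rpl7a, Rpl41 and Rpsa most of the width lay downstream, with 1647, 1986 and 1714 bp. The Rpl41 gene is 1192 bp long, so its peak reached past the gene, and it also covered the 5′ end of Zc3h10, 1531 bp away. The 5 narrowest peaks of core genes were those of Rps24 (502 bp), Rps14 (603 bp), Rpl3 (625 bp), Rplp0 (743 bp) and Rpl18 (780 bp). All but Rplp0 had a wider peak over a protein-coding start further downstream, 1488 bp in Rpl3, 1237 bp in Rps24, 1173 bp in Rps14 and 887 bp in Rpl18. In Rps24 this wider peak was the only one within 1000 bp of a protein-coding start, so the peak of 502 bp lay at none. Read over any protein-coding start, the median width of the members' promoter peaks was 1220 bp.

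The peaks of ribosomal protein genes were lopsided towards the gene. From the 5′ end, the peak over it reached a median of 781 bp downstream in the 77 members with one (quartiles 613 to 968), against 622 bp (452 to 831) in 12900 protein-coding genes and 572 bp (470 to 679) in 74 mitochondrial ribosomal protein genes. Upstream, the median was 400 bp (291 to 524), against 436 bp for all genes and 418 bp for the mitochondrial list. The downstream reach was 786 bp for the large subunit and 810 bp for the small subunit, and 508 bp in the 6 other members with a peak over the 5′ end. Translation factors and further genes known for oligopyrimidine mRNAs, such as Eef1a1, Eef2 and Pabpc1, had a median of 701 bp over 15 genes. Genes for ribosome assembly and RNA polymerase I, such as Ncl, Fbl and Polr1a, had 558 bp over 21 genes. Measured from the most upstream start in RefSeq, the members' medians were 736 bp downstream and 470 bp upstream, against 595 and 464 bp for all matched genes, so the medians of members and all genes then differed mainly on the downstream side.

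**Figure D3:**
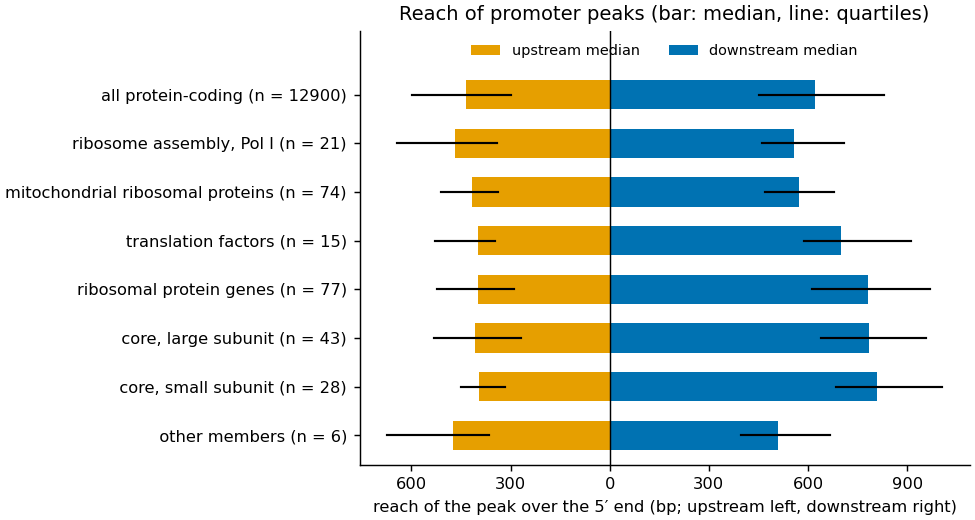
Reach in bp of the peak over the 5′ end, upstream to the left and downstream to the right, for the ribosomal protein genes, their subsets and 4 comparison sets. Bars are medians over genes and lines the quartiles, with the downstream median at 781 bp for ribosomal protein genes and 622 bp for all protein-coding genes.

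In most members the peak over the 5′ end covered exon 1, the start codon and intron 1. The comparison used genes with a peak over the 5′ end and a protein-coding transcript that starts exactly there, 73 members and 11455 of all protein-coding genes. The peak contained the start codon in 63 of the 73 members (86.3%), against 61.9%. Among genes with introns, it contained the whole of exon 1 in 71 of 72 members (98.6%), against 89.9%, and the whole of intron 1 in 50 (69.4%), against 11.6%. For mitochondrial ribosomal protein genes the share with the start codon was 85.3%, that with exon 1 was 100.0%, and intron 1 lay wholly inside in 17 of 68. Intron 1 had a median length of 371 bp in the members, 1280 bp in the mitochondrial list and 3713 bp over all genes, so the shares for intron 1 combine intron length with peak reach. Exon 1 had medians of 98, 176 and 226 bp in the same order, so the shares for exon 1 also combine length with reach. The downstream edge of the peak lay in intron 1 in 21 members, in intron 2 in 21 and in intron 3 in 10.

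In 13 of the 73 members (17.8%) the peak held 50% or more of the span of the transcript, against 2.85% of all genes. The median gene length was 3328 bp over all 86 members and 17425 bp over all protein-coding genes. This share therefore combines gene length with peak reach. Counted without the base of the 5′ end itself, the share was 99.9% in Rpl41, where the peak reached beyond the transcript and so covered all of it. It was 91.1% in Rpl36, 89.0% in Rps27, 82.1% in Rps15 and 81.4% in Rpl10. The lowest value was 1.45%, in Rpl18, whose annotated 5′ end lies far upstream of its start codon. The 5 genes with the highest shares all encode core proteins, and they were picked after their values were seen.

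**Figure D4:**
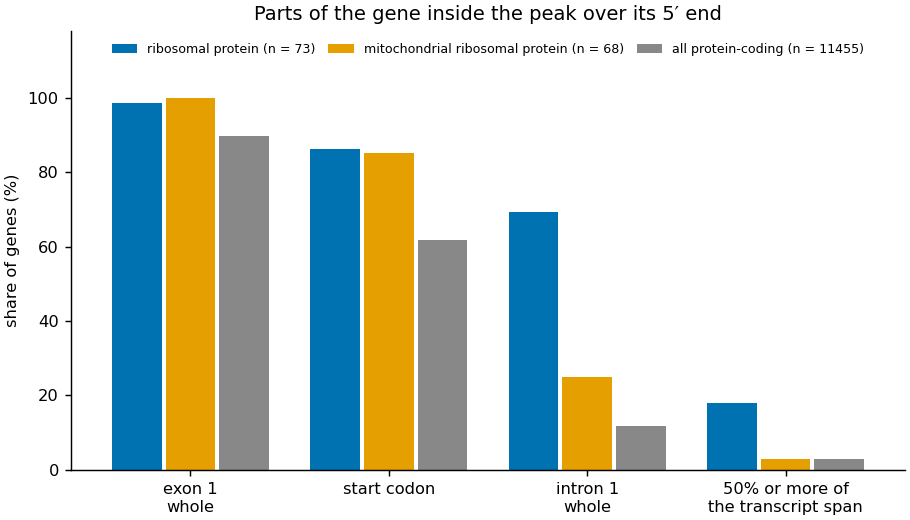
Share of genes (%) whose peak over the 5′ end contains the whole of exon 1, the start codon, the whole of intron 1, or 50% or more of the transcript span, for 73 ribosomal protein genes, 68 mitochondrial ribosomal protein genes and 11455 protein-coding genes (72, 68 and 11017 for exon 1 and intron 1, which need an intron). For intron 1 the shares are 69.4% for ribosomal protein genes and 11.6% for all protein-coding genes.

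Peaks were also counted over the whole neighbourhood of each gene, promoter peaks included. The median was 4 within 10000 bp of the gene (quartiles 3 to 5), against 3 (1 to 6) for all protein-coding genes. The members were shorter, with a median length of 3328 bp against 17425 bp. Counted from the 5′ end alone the medians were 3 and 2. No member had more than 10 peaks, while 7.42% of all genes did. Rpl3 had the most, with 10, and those below it included Rpl21 and Rpl22 with 7 each and Rpl11, Rpl19, Rpl32 and Rps14 with 6. The 10 peaks of Rpl3 comprised 2 within 1000 bp of its 5′ end, 3 inside the gene, 3 downstream and 2 upstream. Rpl21 had 3 peaks inside the gene beside its promoter peak of 1075 bp. At the other end, 4 members had a single peak, among them Rpl36a and Rpl10l, where it was the promoter peak.

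The members and peaks formed 320 pairs, over 314 distinct peaks, of which 6 lay near 2 members. In 87 pairs (27.2%) the peak was at the member's own promoter, with a median width of 1162 bp, and in 61 (19.1%) at the promoter of another protein-coding gene, with a median of 851 bp. Of the rest, 53 lay upstream of the gene, 39 inside it and 80 downstream, with median widths of 416, 469 and 396 bp. More than 1000 bp from every annotated protein-coding 5′ end, 169 distinct peaks lay within 10000 bp of a member. Their median width was 414 bp, against 365 bp over all 87847 peaks at such a distance. Not all of the 169 were away from promoters. They included peaks over further protein-coding starts of members, such as those of 1539 bp in Rps2 and 1488 bp in Rpl3.

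Some promoter peaks were shared with a neighbouring gene. The promoter peak also covered the 5′ end of another protein-coding gene in 18 of 81 members (22.2%), against 17.1% of all promoter peaks. In 9 of the 18 the partner was transcribed away from the member: Rpl35a with Iqcg, Rpl36al with Mgat2, Rpl4 with Zwilch, Rpl7 with Rdh10, Rpl7a with Med22, Rpl9 with Lias, Rps24 with Polr3a, Rps27 with Rab13 and Rps28 with Ndufa7. The 5′ ends were 10 bp apart in Rps28 and Ndufa7, which encodes a subunit of respiratory complex I, and 1112 bp apart in Rpl7 and Rdh10. In 7 the partner lay on the opposite strand with its 5′ end inside the member, so that the genes overlapped at their starts. The 5′ ends were 55 bp apart in Rpl12 with Lrsam1 and up to 534 bp apart in Rpl3 with Syngr1. The other such pairs were Rpl15 with Nkiras1, Rpl35 with Arpc5l, Rps18 with Vps52, Rps25 with Trappc4 and Rps27a with Clhc1. The remaining 2, Rpl41 with Zc3h10 and Rps10 with its readthrough gene RPS10-NUDT3, lay on the same strand. The 18 thus include a readthrough annotation of Rps10 itself. For Rps24 they include the peak of 502 bp, which lay at no protein-coding start of Rps24. Shared promoter peaks had a median width of 1252 bp and the other 63 one of 1165 bp, with overlapping quartiles. For a shared peak, the accessibility of one promoter cannot be told apart from that of the other.

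Chromosome X carried 4 core genes, Rpl10, Rpl36a, Rpl39 and Rps4x. All 4 had a peak over the 5′ end, with widths of 2804, 1014, 1472 and 891 bp. Of the 948 protein-coding genes of this chromosome, 384 (40.5%) had a peak over the 5′ end. A peak lay within 1000 bp in 434 (45.8%), with a median width of 998 bp. The 4 core genes had 2, 1, 3 and 3 peaks within 10000 bp of the gene, against a median of 1 for the chromosome.

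Many members host snoRNA genes, which guide the modification of ribosomal RNA and are processed from introns. An annotated snoRNA gene lay inside 30 of 86 members (34.9%), 20 of the large subunit and 10 of the small, against 1.18% of all protein-coding genes, 26.7% of the translation factor list and 21.7% of the ribosome assembly list, and together these members held 58 snoRNA genes. Rpl4 held 5, Rpl13a held 4, and Rpl17, Rpl23a, Rpl5, Rpl7a, Rps12 and Rpsa 3 each. Core genes with and without a snoRNA gene had promoter peaks with median widths of 1224 bp (quartiles 1071 to 1446, 28 peaks) and 1177 bp (1008 to 1430, 47 peaks).

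The base composition of the promoters was examined from 250 bases before the 5′ end to 50 after. The median GC content of the members was 55.3%, against 55.0% for all protein-coding genes. The ratio of observed to expected CpG dinucleotides had a median of 0.815, against 0.525 for all protein-coding genes. It was 0.82 for the mitochondrial list, 0.858 for ribosome assembly and RNA polymerase I and 0.939 for the translation factors, so the value was not particular to the members.

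In the same windows, 9 motifs were sought as fixed letters on both strands. The ETS motif, CCGGAAG, bound by ETS factors such as GABPA, was present in 23 members (26.7%), against 10.8% of all promoters, 15.2% of those with a promoter peak and 34.6% of mitochondrial ribosomal protein promoters. Its 26 matches had a median position of -25.5 from the 5′ end, and 19 lay on the strand of the gene. The YY1 motif, AAGATGGC, was present in 6 members (6.98%), namely Rpl18, Rpl23a, Rpl35a, Rpl7l1, Rps15a and Rps27, against 2.92% of all promoters and 12.8% of the mitochondrial list. Its median position was +37.5, with 4 of 6 matches after the 5′ end. No member had both motifs, and 29 (33.7%) had one of them, against 13.1% of all promoters.

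The GC box, GGGCGG, bound by SP1 and related factors, was present in 40 members (46.5%), against 43% of all promoters and 60.9% of those with a promoter peak. The CCAAT box, CCAAT, bound by NF-Y, was present in 26 (30.2%), against 39% of all promoters and 38.0% of those with a promoter peak. The E-box, CACGTG, bound by MYC and USF factors among others, was present in 11 (12.8%), against 7.75% of all promoters and 9.97% of those with a promoter peak. The TATA box, TATAAA, was present in 9 (10.5%), against 12.6% of all promoters, 7.38% of those with a promoter peak and 6.41% of the mitochondrial list, with 6 of its 10 matches after the annotated 5′ end, whereas a TATA box acts upstream of a start. The NRF1 motif, GCATGCGC, was present in 3 (3.49%), against 3.71% and 4.77%. The ZNF143 motif, CTACAATTC, was present in 2, Rpl23a and Rps27a (2.33%), against 0.465% and 0.607%. In 20 members (23.3%) none of the 9 motifs was found, with no share over all promoters to set beside it.

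The octamer, ATGCAAAT, which OCT4 and other POU factors bind, was found in none of the 86 windows, against 1.57% of all promoters (345 genes). Within the promoter peaks as listed it was found in 3 of 81, those of Rpl23, Rpl28 and Rpl36a (3.7%), against 2.75% of all promoter peaks, which had a smaller median width. Among the 169 peaks near members that lay more than 1000 bp from every protein-coding 5′ end, it was found in 3 (1.78%). The share over all peaks at such a distance was 2.55%. These counts concern fixed letters and not binding.

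**Figure D5:**
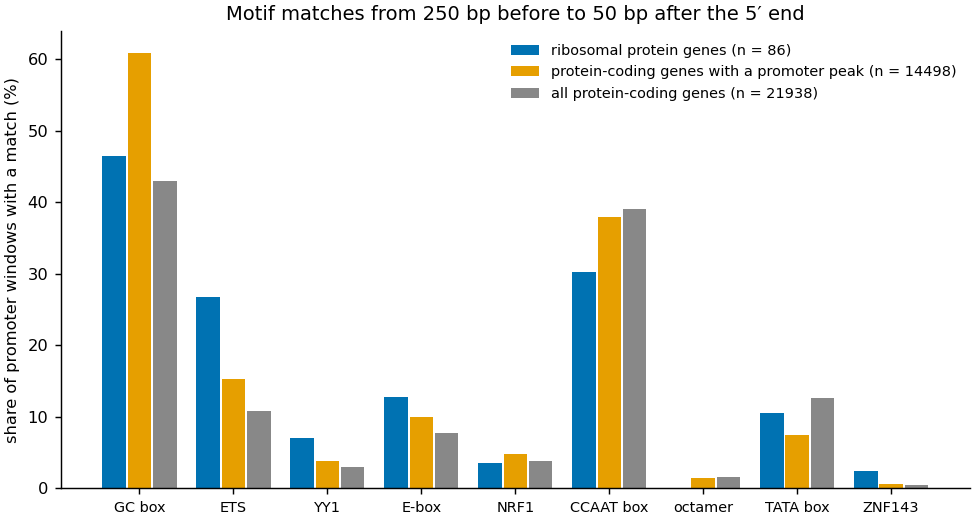
Share of promoter windows (%) with at least 1 match to each of 9 motifs, from 250 bp before to 50 bp after the 5′ end, for 86 ribosomal protein genes, 14498 protein-coding genes with a promoter peak and all 21938 protein-coding genes. The ETS bar of the ribosomal protein genes stands at 26.7%, against 15.2% and 10.8%, and their octamer bar at 0.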

How the data were processed

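The sorted and unsorted ATAC-seq libraries are described with the results. Per the study's methods and the labels, the authors aligned reads to mm10 (GRCm38) with STAR 2.6.1c, removed duplicates with Picard, kept chromosomes 1 to 19, X and Y, called peaks on paired-end fragments with MACS2 2.1.1.20160309 and merged the peaks of the dox-treated libraries with BEDTools. The deposited file holds 3 columns, chromosome, start and end, with no count, height or p-value, so the depth is unknown and merged widths grow with the number of libraries. Any shift for the cut of Tn5 was not given in the sources used here.

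Genes and starts came from GENCODE M21 and sequence from RefSeq's GRCm38.p6, and every peak end lay within its chromosome. The 5′ end is the outermost annotated base of the gene. A promoter peak is the nearest within 1000 bp, and other peaks were counted within 10000 bp of the gene. Symbols were matched to RefSeq starts for 66 of 86 members. Counts and medians were set beside those of all protein-coding genes, with no test. Python 3.11.15, numpy 2.4.6 and matplotlib 3.10.9 were used, and the code was tested on simulated peaks. The genes named were those without a promoter peak, the 5 widest and 5 narrowest core peaks, the most peaks, chromosome X, shared peaks and members outside the core list, and printed promoters were chosen by role. Members and lists were chosen with earlier results of these data known. Some genes and sequences are not reported here.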

Additional observations from a re-analysis of the deposited data

How the results depend on the processing

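No paired analysis was possible because 1 merged list stands for every dox-treated library and gives no value for any of them. For the same reason the limma comparison of MD-OCT4 with MD*-OCT4, with or without a replicate block, and leaving out libraries were not run. Of 63 alternatives to 16 results, 50 left the value inside an interval over genes around the main value. The interval treats the genes as a random sample, which a named family is not. Many alternatives were nearly bound to stay inside it, such as the core list, 77 of the same 86 genes. Peak filters left the share of 94.2% and the median width of 1198 bp unchanged. The interval was wide for motif shares, such as 7.29% to 21.5% for the E-box. Within 100 bp on either side of the 5′ end, the E-box share was 8.14% (main value 12.8%), against 5.68% of all promoters. The CCAAT box share was 23.3% there (main value 30.2%), against 28.2%. The share of members with a peak over the 5′ end was 95.3% over any protein-coding start (89.5% at the 5′ end). The median number of peaks was 2.5 within 5000 bp and 13 within 50000 bp. No value over all genes stands beside this share and these medians, so their shifts cannot be read as particular to the members. The tract share was 26.7% at any protein-coding start and 64.0% within 50 bp. In whole promoter peaks, motif shares in members were 90.1% for the GC box, 51.9% for ETS, 19.8% for YY1, 37.0% for the E-box, 11.1% for NRF1, 60.5% for the CCAAT box and 25.9% for the TATA box, against 84.8%, 29.6%, 9.5%, 24.0%, 7.89%, 65.3% and 17.0% of all promoter peaks. The peaks read were wider in members, with medians of 1198 and 1083 bp, and the part of peak width in these shares was not tested. The alternatives chosen after seeing the data were widths over any protein-coding start, peaks counted from the 5′ end, and RefSeq starts, from which the upstream reach was 470 bp. The list held 7 peaks wider than 5000 bp, none near a member.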

Other observations

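Pseudogenes named for ribosomal proteins, which arose mostly as processed copies of their mRNAs, were seldom at listed peaks. Of 294 annotated pseudogenes, 35 (11.9%) had a peak within 1000 bp of the 5′ end and 8 (2.72%) a peak over it, with a median width of 342 bp for the nearest peak. How reads from near-identical copies were placed in alignment was not given in the sources used here.

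Other genes of protein synthesis resembled the ribosomal protein genes in having a promoter peak. All 15 translation factors and further oligopyrimidine genes had one, with a median width of 1232 bp, as did all 23 genes of ribosome assembly and RNA polymerase I, with 1072 bp.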
